A study of Mus musculus with 16 samples.

Results

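The Gnas imprinted cluster lies on mouse chromosome 2 and holds Gnas on the plus strand (ENSMUSG00000027523.19) and its antisense gene Nespas on the minus strand (ENSMUSG00000086537.7). All CpGs of the series table from 2 kb upstream of the start to the end of either gene in the GENCODE M21 annotation (build mm10) were taken as members. This gave 300 of the 1203687 CpGs measured. All 300 fell in the Gnas span and 113 of them also in the Nespas span. The study asked how faithfully DNA methylation passes through clonal expansion, using target capture bisulfite sequencing (tcBS-seq), in which captured DNA is treated so that unmethylated cytosines read as thymine. The cells were mouse embryonic fibroblasts (MEFs) from 2 sibling C57BL/6J embryos at E13.5, immortalised by serial passage. Each embryo gave 1 parental line, MEF-1 or MEF-2, which is a mixed culture, and 7 clonal lines that were each grown from a single sorted cell, 16 libraries in all. Per the study, MEF-1 came from a male and MEF-2 from a female embryo, so that embryo, sex and culture cannot be told apart in any comparison of the families. No treatment or transgene separates the groups, each clonal line is 1 clone, and no marker separates the maternal from the paternal copy in this inbred strain.

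At imprinted genes expression can depend on the parent from which a copy came, and DNA methylation differs between the maternal and the paternal copy. Gnas encodes the stimulatory G protein alpha subunit (Gs-alpha), which links hormone receptors to adenylyl cyclase and so to cyclic AMP, and other products of the same locus start further upstream. At the Nesp promoter, which drives a neuroendocrine secretory protein, the paternal copy carries the methylation. At the Nespas promoter, the Gnasxl promoter (the start of the extra-large form of Gs-alpha) and the exon 1A promoter, the maternal copy carries it. Exon 1, the Gs-alpha promoter itself, is unmethylated on both copies. A population with equal numbers of both copies and intact imprints would thus read near 50% at all of these promoters except exon 1.

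Each promoter was defined as the cluster of annotated transcript starts with 500 bp on either side. The Nesp window (chr2:174283820-174285858) held 24 measured CpGs, the Nespas window (chr2:174294889-174295936) 38, the Gnasxl window (chr2:174297359-174298359) 8 and the exon 1A window (chr2:174327070-174328523) 14. The exon 1 window (chr2:174329506-174330787) held 0 measured CpGs, since the table keeps a CpG only where every library has 10 reads or more. Its level was read from the library tables instead. Sequences are of the plus strand of GRCm38 (mm10), as held in RefSeq, and capitals mark the measured CpGs. They are shown because the levels reported here were read at these positions, and they leave out annotated untranslated regions. The Nesp stretch lies just upstream of the start of Gnas and in an intron of Nespas, and it holds the CpG that differed most clearly between the families.
Nesp (chr2:174283861-174284160): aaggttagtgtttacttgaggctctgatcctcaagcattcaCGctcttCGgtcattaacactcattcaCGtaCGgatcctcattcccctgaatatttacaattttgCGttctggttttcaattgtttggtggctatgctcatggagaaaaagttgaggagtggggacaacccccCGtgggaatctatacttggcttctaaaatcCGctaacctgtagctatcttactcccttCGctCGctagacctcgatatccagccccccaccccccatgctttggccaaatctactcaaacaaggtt
Nespas (chr2:174295202-174295501): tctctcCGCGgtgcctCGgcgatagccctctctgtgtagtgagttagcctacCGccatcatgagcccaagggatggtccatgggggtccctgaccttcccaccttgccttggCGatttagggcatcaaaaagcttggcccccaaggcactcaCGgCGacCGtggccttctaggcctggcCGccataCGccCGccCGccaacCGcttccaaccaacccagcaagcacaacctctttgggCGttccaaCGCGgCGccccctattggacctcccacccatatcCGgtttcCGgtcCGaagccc
Gnasxl (chr2:174297434-174297733): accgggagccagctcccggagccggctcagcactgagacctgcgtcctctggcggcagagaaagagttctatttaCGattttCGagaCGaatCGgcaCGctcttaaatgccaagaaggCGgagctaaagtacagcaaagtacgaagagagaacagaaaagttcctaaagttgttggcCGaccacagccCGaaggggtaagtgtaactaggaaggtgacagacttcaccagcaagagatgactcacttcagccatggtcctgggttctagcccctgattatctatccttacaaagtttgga
exon 1A (chr2:174327942-174328107): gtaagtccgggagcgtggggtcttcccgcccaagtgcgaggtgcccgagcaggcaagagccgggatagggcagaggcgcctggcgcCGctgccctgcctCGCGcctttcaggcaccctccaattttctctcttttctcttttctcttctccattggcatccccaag
The series table covered 9 of the 10 CpGs of the Nesp stretch, 20 of the 21 of the Nespas stretch, 8 of the 14 of the Gnasxl stretch and 3 of the 11 of the exon 1A stretch. The stretches were chosen to hold as many measured CpGs as possible, so they do not show the coverage of the windows. The library tables list 126 CpGs in the Nesp window, 49 at Nespas, 50 at Gnasxl and 109 at exon 1A. The series table kept 24, 38, 8 and 14 of them. All 300 member positions were CpGs of the reference.

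Across the series table the 16 libraries held 38485592 to 57348851 calls, where 1 call is 1 read over 1 CpG. Over the members they held 6500 to 12726 calls, with a median of 20 to 38 reads per CpG. The labelled cell type was checked only through promoter methylation, as no expression is used here. The promoter windows of the fibroblast genes Col1a1 and Col1a2 were at 1.07% ± 0.636 and 1.49% ± 1.28 in the MEF-1 clonal lines (SD, n = 7) and at 1.11% ± 0.803 and 1.71% ± 1.36 in the MEF-2 clonal lines. A further Col1a1 window, at an internal start, was at 3.63% ± 3.96 and 27.6% ± 8.22 and was called higher in MEF-2 (quasi-binomial adjusted p = 0.000232). Those of the blood genes Ptprc and Cd79a were at 74.7% ± 5.27 and 59.4% ± 7.10 in MEF-1, and at 84.9% ± 3.79 and 68.3% ± 4.75 in MEF-2. The epithelial genes Epcam and Cdh1 were lower, at 22.6% ± 3.74 and 52.3% ± 7.06 in MEF-1 and at 10.3% ± 5.03 and 46.4% ± 3.58 in MEF-2. Markers of other cell types were thus not uniformly methylated. Thy1, another fibroblast marker, was methylated at 96.5% ± 3.27 (MEF-1) and 95.7% ± 3.82 (MEF-2). Windows of the other 3 fibroblast markers were not measured.

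The 4 promoters kept an intermediate level in the clonal lines. Of their 84 CpGs, 72 (85.7%) lay above 10% and below 90% in all 14 clonal lines. The share was 36 of 38 at Nespas, 13 of 14 at exon 1A, 20 of 24 at Nesp and 3 of 8 at Gnasxl. Among the 216 members outside the 4 windows, whatever their parental level, 115 (53.2%) did so. Among the 257832 other CpGs of the series with an intermediate level (10 to 90%) in both parental lines, 9.84% did so. The neighbour similarity score, which is the authors' share of clonal lines in which a CpG lies within 10 points of its closest measured neighbour, averaged 0.860 over the 84 CpGs and 0.322 over those other CpGs. At the start windows of the imprinted domains Kcnq1ot1, Peg3 and Airn it averaged 0.810, 0.924 and 1.00, so a high score was not particular to the Gnas cluster. Neighbouring CpGs share reads, so these shares are given as descriptions.

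In the Nesp window the level was 63.9% in the MEF-1 parental line (95% Wilson interval 60.9 to 66.9) and 53.1% in the MEF-2 parental line (50.1 to 56.1). These and the later intervals count every call as independent. Neighbouring CpGs share reads, so the intervals understate the counting error. MEF-1 clonal lines 1 to 7 were at 55.6, 62.2, 61.9, 61.1, 70.6, 69.2 and 69.4%, and MEF-2 clonal lines 1 to 7 at 56.1, 50.3, 37.3, 51.9, 55.7, 57.0 and 50.8%. MEF-2 clonal line 3 stood lowest, and MEF-1 clonal line 1 overlapped with the upper MEF-2 lines.

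At the Nespas window the parental lines were at 47.9% (45.6 to 50.2) and 38.1% (35.8 to 40.4). The 7 MEF-1 clonal lines read, in order, 38.2, 42.1, 46.2, 37.7, 37.5, 28.7 and 29.3%, and the 7 MEF-2 clonal lines 47.7, 43.4, 62.2, 35.6, 40.1, 44.1 and 36%. Lines 6 and 7 were the lowest of MEF-1, and line 3 was the highest of MEF-2.

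The Gnasxl window, with 8 CpGs and 85 to 208 calls per library, read 47.1% (40.4 to 53.9) and 47.3% (40.7 to 54.1) in the parental lines. Its MEF-1 clonal levels were 44.0, 52.3, 44.7, 27.8, 50.5, 13.1 and 27.9%, and its MEF-2 clonal levels 43.1, 31.3, 69.4, 43.6, 54.5, 30.6 and 28.9%. It showed the widest range of the 4 windows in each family, from 13.1% in MEF-1 clonal line 6 to 69.4% in MEF-2 clonal line 3.

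The exon 1A window, which governs whether Gs-alpha is silenced on the paternal copy in some tissues, read 38.0% (33.6 to 42.6) and 36.4% (32.3 to 40.6) in the parental lines. MEF-1 clonal lines 1 to 7 were at 49.9, 40.2, 40.1, 43.2, 50.9, 23.4 and 38.9%, and MEF-2 clonal lines 1 to 7 at 48.0, 46.1, 60.8, 43.0, 51.2, 49.9 and 39.7%. The extreme lines were again MEF-1 clonal line 6 and MEF-2 clonal line 3.

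**Figure D1:**
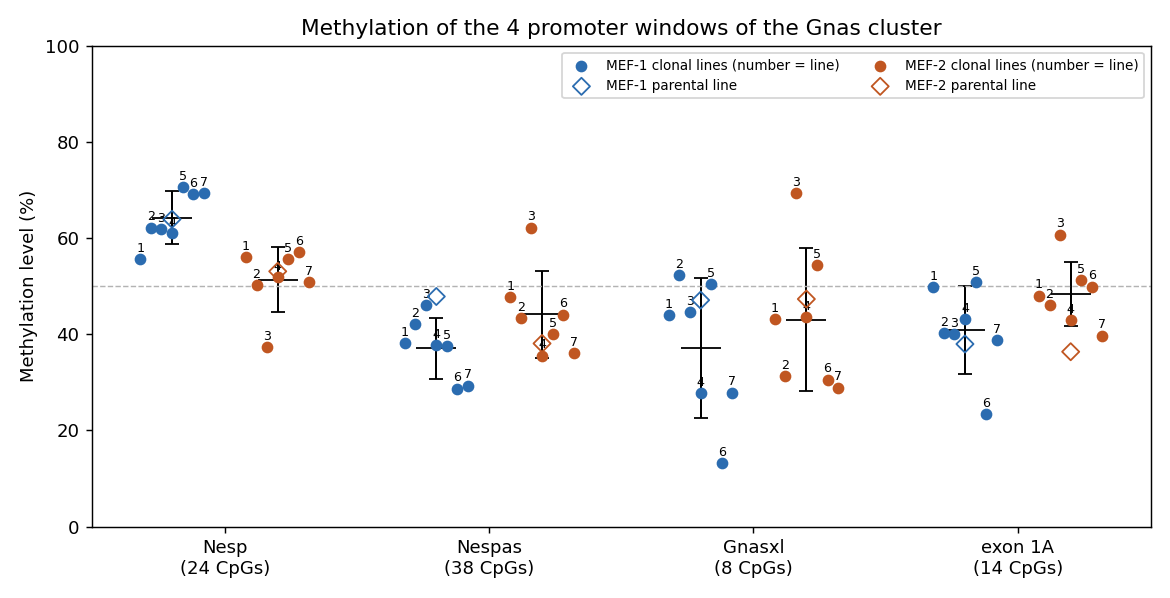
Methylation level (%, vertical axis) of the Nesp, Nespas, Gnasxl and exon 1A windows (horizontal axis). Filled circles are clonal lines with the line number above, open diamonds are parental lines, and black bars give the mean and SD of 7 clonal lines. MEF-2 clonal line 3 is the lowest of its family at Nesp (37.3%) and the highest at the other windows, up to 69.4% at Gnasxl.

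Exon 1 was read from the library tables with no read minimum, a choice made after the data were seen. It stood apart from the other promoters at 2 methylated of 235 calls in the MEF-1 parental line (0.851%, interval 0.234 to 3.05) and 1 of 259 in the MEF-2 parental line (0.386%, interval 0.0682 to 2.15). The clonal lines ranged from 0 of 71 calls in MEF-1 clonal line 5 (interval 0 to 5.13%) to 14 of 234 calls (5.98%) in MEF-1 clonal line 1. The 7 MEF-1 clonal lines averaged 2.70% ± 1.82 and the 7 MEF-2 clonal lines 2.73% ± 1.64 (SD).

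In MEF-2 clonal line 3 the windows methylated on opposite copies stood apart from the family in opposite directions. Pooled over Nespas, Gnasxl and exon 1A, MEF-2 clonal line 3 was at 62.4% against 37.3% at Nesp, a difference of -25.2 points. No other clonal line had Nesp as the lower of the pair at the CpGs of the series table. In MEF-1 clonal line 6 the maternally methylated windows were at 26.9% and Nesp was 42.3 points higher. In MEF-1 clonal line 7 they were at 31.4% and Nesp was 38.0 points higher. Nesp itself, at 69.2 and 69.4% in MEF-1 clonal lines 6 and 7, lay within the mean and SD of the family (64.3% ± 5.54). It was higher in MEF-1 clonal line 5 (70.6%), where the pooled windows were at 42.5%. In the other 11 clonal lines Nesp was 7.11 to 28.1 points higher. The sign in MEF-2 clonal lines 1 and 2 depended on the CpGs read. With no read minimum, from the library tables, Nesp minus the pooled windows was -0.468 points in MEF-2 clonal line 1 and -6.80 points in MEF-2 clonal line 2, and with at least 5 reads it was -1.62 and -3.35 points. MEF-2 clonal line 3 (-28.6 and -30.1 points) and MEF-1 clonal lines 6 (34.3 and 37.1 points) and 7 (28.1 and 29.4 points) remained at the ends. These comparisons were chosen after the data were seen. The sum of the Nesp and the pooled level was 99.4% ± 6.64 over the 14 lines (SD; 95.2% ± 7.14 with no minimum), whereas Nesp alone had an SD of 8.97 points and the pooled windows one of 8.17 points. Within MEF-1 the SD of the sum (6.09 points) was no smaller than that of Nesp (5.54 points) and close to that of the pooled windows (6.61 points), and within MEF-2 it was 6.12 points against 6.76 and 8.51 points.

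**Figure D2:**
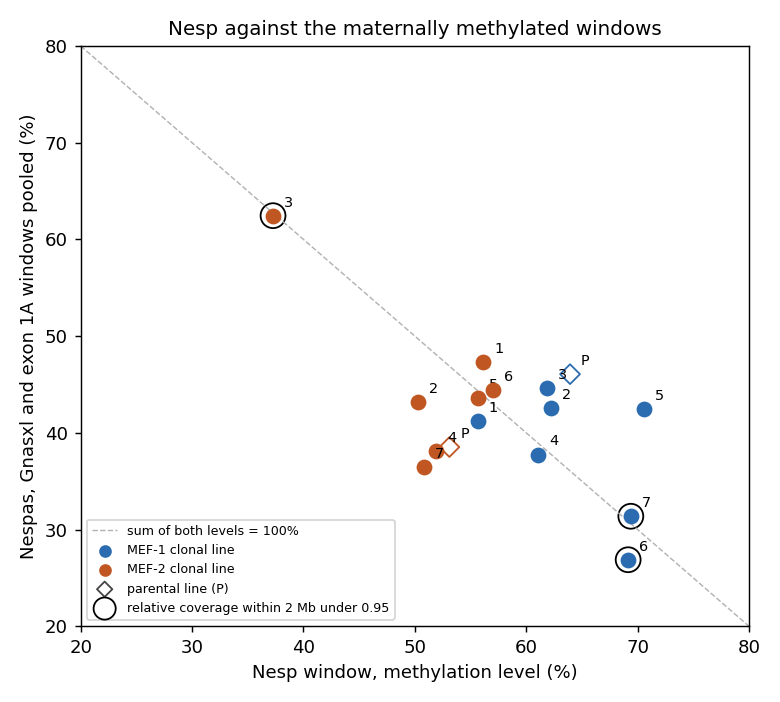
Level of the Nesp window (%, horizontal axis) against the pooled level of the Nespas, Gnasxl and exon 1A windows (%, vertical axis) for each library, numbered by line (P, parental). The dashed line marks a sum of 100%, and black rings mark the libraries whose relative coverage within 2 Mb of the cluster was under 0.95, namely MEF-1 clonal lines 6 and 7 and MEF-2 clonal line 3.

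These 3 lines also had the lowest coverage of the cluster. Relative coverage is the mean number of reads per CpG, scaled within each library to its median chromosome and then to the median MEF-2 clonal line. Within 2 Mb on either side of the cluster it was 0.813 in MEF-2 clonal line 3, 0.787 in MEF-1 clonal line 6 and 0.938 in MEF-1 clonal line 7, and 0.986 to 1.06 in the other 11 clonal lines. The reduction spanned most of chromosome 2 in MEF-2 clonal line 3 (0.784 over the chromosome) and in MEF-1 clonal line 7 (0.912). In MEF-1 clonal line 6 it covered the 10 Mb that start at Nesp (0.780) and the 10 Mb before Nesp (0.888). Several bins further away were also low in this line, down to 0.780, while the bin from 30 to 20 Mb before Nesp was at 1.03. The part of coverage in the levels was not tested.

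In MEF-2 clonal line 3 the relative coverage of chromosomes 7 and 17 was 1.02, and 3 imprinted windows were read there. Its Peg3 window was at 37.8%, within the 33.6 to 45.4% of the other 6 lines, and its Kcnq1ot1 window was at 30.2%, the lowest of the 7 and next to a line at 31.0%. Its Airn window on chromosome 17 was at 44.6%, within the 36.3 to 59.8% of the other 6 lines. The part of coverage in these levels was not tested. On chromosome 2 the shift extended beyond the promoter windows. The 25 CpGs between the exon 1A and exon 1 windows were at 73.5% in this line, against 47.9% ± 12.2 over the 7 MEF-2 clonal lines, and the 48 CpGs of the rest of the first Gnasxl exon were at 61.1%, against 47.5% ± 7.49. The body of Gnas after exon 1 was at 90.5% in this line and 90.1% ± 1.69 over the family.

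**Figure D3:**
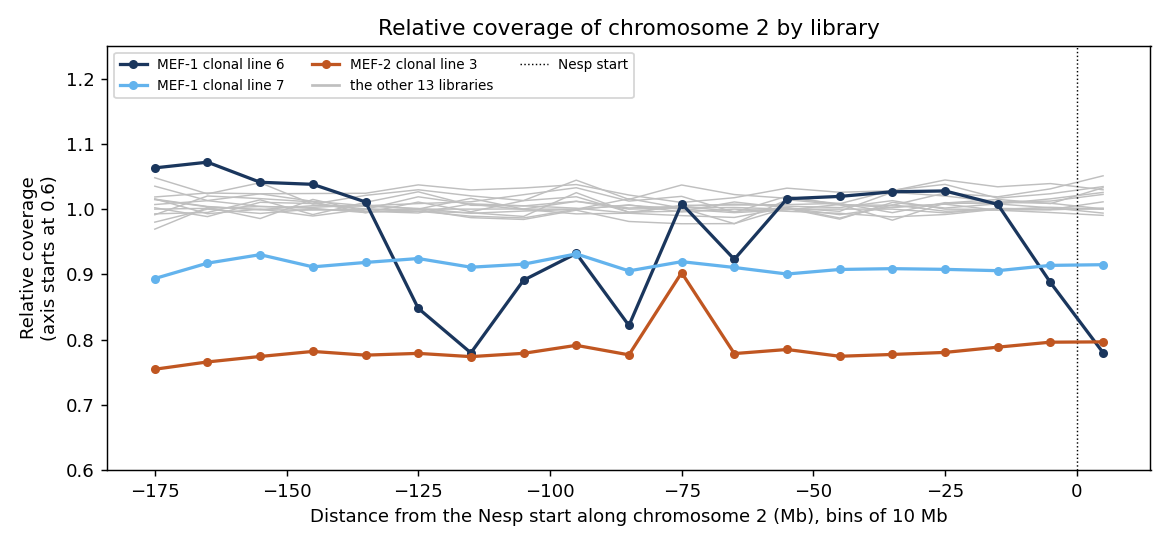
Relative coverage (vertical axis, starting at 0.6) in bins of 10 Mb along chromosome 2, by distance from the Nesp start (Mb, horizontal axis), for all 16 libraries. MEF-2 clonal line 3 and MEF-1 clonal line 7 are low along the chromosome, and MEF-1 clonal line 6 is low in several stretches, among them the bin after the Nesp start at 0.780.

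MEF-1 and MEF-2 clonal lines were then compared at each promoter window with a quasi-binomial model of methylated and unmethylated reads, adjusted by Benjamini and Hochberg over all 22703 promoter windows of the annotation. Nesp was higher in MEF-1, at 64.3% ± 5.54 against 51.3% ± 6.76 (SD, n = 7 each), a difference of 12.95 points with an quasi-binomial adjusted p of 0.00839. The two-sided exact permutation test of 7 against 7 lines gave p = 0.00233, where the smallest p possible is 0.000583. Of all windows, 41.9% were called in the same comparison. The levels of the families overlapped at all 4 windows, while 18.1% of all windows had no overlap. The parental lines, which the test did not use, were at 63.9% and 53.1% at these CpGs, but at 54.9% (52.7 to 57.2) and 53.6% (51.5 to 55.8) over the 126 CpGs of the library tables with no minimum, where their intervals overlap.

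The call at Nesp did not hold under every choice of CpGs or of measure. On the same CpGs, the mean of the CpG levels gave a difference of 9.24 points (exact permutation test, adjusted p = 0.110). Thinning every CpG to 10 reads gave 10.8 points (quasi-binomial adjusted p = 0.0822). Without the only CpG of the window that was called on its own, which was picked for its difference after the data were seen, 8.38 points remained, the levels were 60.3% ± 6.16 and 51.9% ± 6.79 and the quasi-binomial adjusted p was 0.0867. With windows of 250 bp on either side the difference was 5.89 points (quasi-binomial adjusted p = 0.558), and with 1000 bp it was 4.73 points (quasi-binomial adjusted p = 0.428). It was 9.80 points (quasi-binomial adjusted p = 0.0151) without MEF-1 clonal line 6 and MEF-2 clonal line 3, which lie at a low coverage of the cluster. With at least 20 reads required it was 17.7 points (quasi-binomial adjusted p = 0.00708). Over the 126 CpGs of the library tables with no minimum, the clonal means were 57.1% in MEF-1 and 45.4% in MEF-2, which was not tested.

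The 3 maternally methylated windows did not pass the test. Nespas was at 37.1% ± 6.33 in MEF-1 and 44.2% ± 9.08 in MEF-2 (quasi-binomial adjusted p = 0.202). Exon 1A was at 40.9% ± 9.12 and 48.4% ± 6.74 (quasi-binomial adjusted p = 0.249). Gnasxl was at 37.2% ± 14.5 and 43.1% ± 14.8 (quasi-binomial adjusted p = 0.793). Without MEF-1 clonal line 6 and MEF-2 clonal line 3 its sign turned, at 41.2% ± 10.8 and 38.7% ± 10.1 (n = 6 each). Without these lines the differences were also smaller, at -2.64 points at Nespas and -2.48 points at exon 1A. MEF-1 clonal line 6 was the lowest of MEF-1 and MEF-2 clonal line 3 the highest of MEF-2 at all 3 windows. Their removal could thus only move these negative differences upwards. Leaving out MEF-2 clonal line 3 alone gave -4.05 points at Nespas and -1.48 points at Gnasxl, and leaving out MEF-1 clonal line 6 alone gave -4.54 points at exon 1A and -1.86 points at Gnasxl.

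The clonal lines of each family were set against their own parental line in the same way, with the single parental library assumed to vary like the clonal lines. No window of the cluster was called, and 0% of all 22703 windows were called in either family by the quasi-binomial test (673 windows in the MEF-1 and 741 in the MEF-2 comparison had an unadjusted p under 0.05). As no window anywhere was called against a single parental library, the lack of a call cannot decide whether the cluster differed. At Nespas 0 of 7 MEF-1 clonal lines were above the parental line, with a mean 10.8 points lower (unadjusted quasi-binomial p = 0.106, quasi-binomial adjusted p = 1.00). At exon 1A 7 of 7 MEF-2 clonal lines were above theirs, with a mean 12.0 points higher (unadjusted quasi-binomial p = 0.0971, quasi-binomial adjusted p = 1.00). Nesp was 0.336 points higher in the MEF-1 clonal lines and 1.79 points lower in the MEF-2 clonal lines than in their parental lines. From the library tables, a choice made after the data were seen, the Nespas values held (-11.3 points with no read minimum, 0 of 7 lines above), whereas those at exon 1A and Nesp did not. Over the 109 CpGs of the exon 1A window the MEF-2 clonal mean was 1.35 points above the parental line with no minimum (3 of 7 lines above), and over 77 CpGs it was 4.16 points above with at least 5 reads (5 of 7). At Nesp the difference of the MEF-2 clonal mean from the parental line was -8.23 points with no minimum and -8.04 points with at least 5 reads.

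The spread between clonal lines was described by the SD of the line levels and was not compared between promoters by a test. The SD of the 7 line levels at Gnasxl was 14.5 points for MEF-1 lines and 14.8 for MEF-2 lines. This exceeded the SD of 98.0% and 96.2% of the promoter windows with a clonal mean of 30 to 70%, whose median SD was 5.64 and 6.81 points. This SD includes read sampling, and Gnasxl held the fewest calls of the 4 windows. A separate measure, taken at single CpGs and summed over a window rather than from the window level, was the share of the largest possible variance that lay between lines beyond binomial read sampling. At Gnasxl it was 0.0488 for MEF-1 and 0.0430 for MEF-2, next to 0.0488 and 0.0388 at Nesp, 0.0382 and 0.0101 at exon 1A, and 0.0149 and 0.0326 at Nespas. This share would be 0 with the same level in every line. Its standard error from leaving out each line was 0.0432 and 0.0452 at Gnasxl and 0.0349 and 0.0234 at Nesp, so the windows cannot be ranked by it. The shares also moved with the CpGs and lines used, at exon 1A in MEF-2 to 0.0456 with 250 bp and 0.0293 with 1000 bp windows, at Nesp in MEF-2 to 0.0817 with at least 20 reads and 0.0633 with 1000 bp windows, and at Nespas in MEF-1 to 0.0320 without lines 1, 4 and 5. The SDs of Nesp exceeded those of 48.4% and 49.3% of the same windows. Without MEF-1 clonal line 6 and MEF-2 clonal line 3 the Gnasxl shares fell to 0.00798 and -3.1e-05. Those at exon 1A fell to 0.0227 and 0.00202 and those at Nespas to 0.0128 and 0.0101. Both lines were extremes of their families at Gnasxl, exon 1A and Nespas, so their removal by itself favours lower shares there. At Nesp they were 0.0623 and 0.0306.

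Single CpGs were compared between the families with the same model over all 1203687 CpGs. Of the 300 members 24 (8%) were called, 12 higher in MEF-1 and 12 higher in MEF-2, while 20.2% of all CpGs were called, 11.6% higher in MEF-1 and 8.53% higher in MEF-2. The promoter windows held 3 of the 24, namely 1 at Nesp and 2 at Nespas. The other 21 lay among the 216 members outside the 4 windows, and 0 of them among the 5 CpGs of a window at an internal Gnas start (chr2:174344150-174345150). In 13 of the 24 the lower family was at 30 to 70% and the higher one at 80% or more, a pattern found in 37.2% of all called CpGs. The parental lines differed in the same direction at 21 of the 24 (95.4% of all called CpGs).

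**Figure D4:**
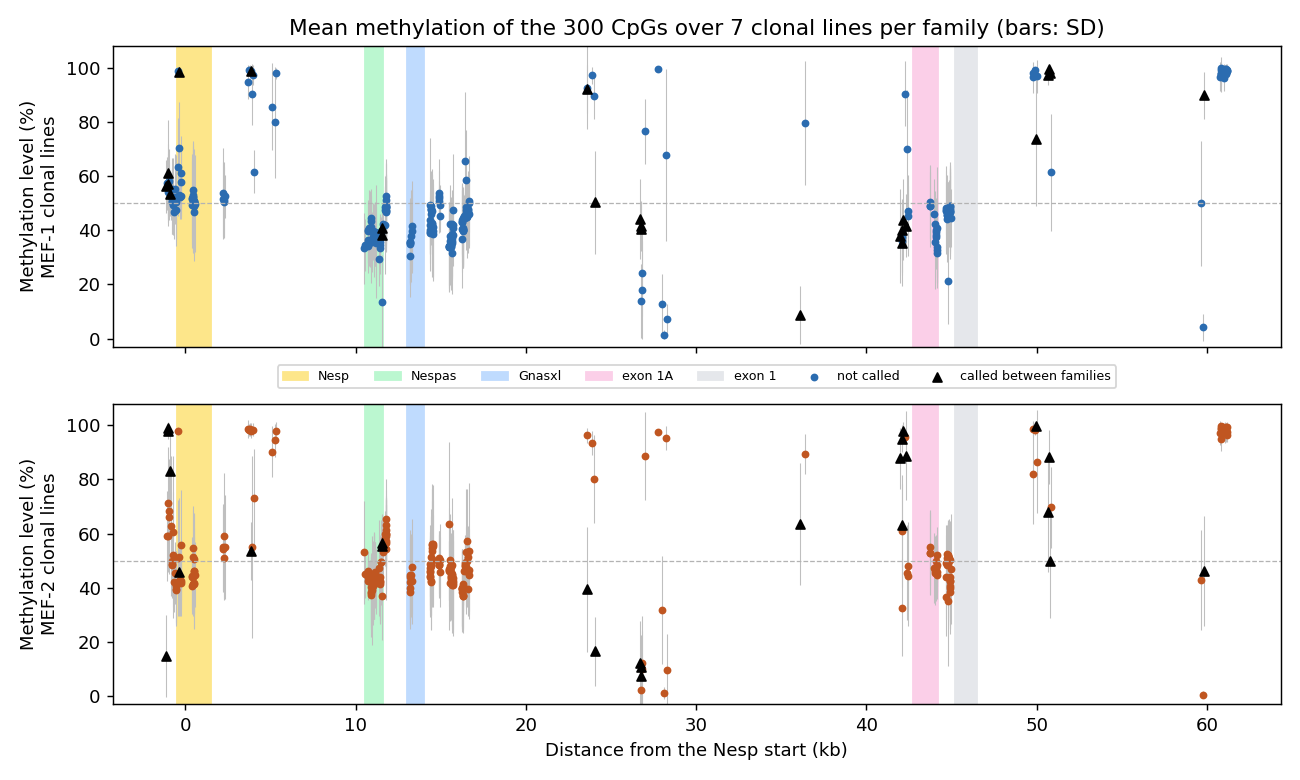
Mean methylation (%, vertical axes) of each of the 300 CpGs over the 7 MEF-1 (top) and 7 MEF-2 (bottom) clonal lines, with SD bars, by distance from the Nesp start (kb, horizontal axis). Coloured bands are the promoter windows and black triangles the 24 CpGs called between the families, of which 21 lie outside the Nesp, Nespas, Gnasxl and exon 1A windows.

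By pooled reads, the largest difference in the MEF-1 direction was in the Nesp window at chr2:174283933, upstream of the start (position -387 bp). MEF-1 clonal lines 1 to 7 were at 100, 98.8, 98.8, 96.5, 97.9, 98.5 and 98.3%, and MEF-2 clonal lines 1 to 7 at 48.4, 50.0, 29.8, 44.0, 52.7, 49.4 and 45.7%. The families did not overlap (quasi-binomial adjusted p = 8.33e-08), and their parental lines were at 96.7% and 58.7%. The measured neighbours on either side were also higher in MEF-1 on average, but by less, and were not called. The CpG just upstream (chr2:174283929) was at 70.5% ± 16.7 and 51.3% ± 21.7 (quasi-binomial adjusted p = 0.321), and the next measured one downstream (chr2:174283967) at 53.1% ± 5.09 and 42.6% ± 12.4 (quasi-binomial adjusted p = 0.208). A CpG further upstream (chr2:174283909) was near full methylation in both families, at 98.7% ± 1.59 and 97.9% ± 1.49. MEF-2 clonal line 3 was at 15.7% at chr2:174283967, where the other 6 MEF-2 lines were at 42.4 to 52.6%.

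In the Nespas window the called CpGs were neighbours near its upstream edge and both were higher in MEF-2. At chr2:174295900 the MEF-1 lines lay between 31.8 and 48.8% and the MEF-2 lines between 44.8 and 78.0%, with means of 38.4% ± 5.41 and 55.5% ± 11.2 (quasi-binomial adjusted p = 0.0271). At chr2:174295902 the means were 40.6% ± 7.00 and 56.4% ± 10.7 (quasi-binomial adjusted p = 0.0473). MEF-2 clonal line 3 was the highest at both, and the parental lines, at 53.5% and 54.4% at the former and 57.1% and 53.6% at the latter, did not show the difference. Between Nesp and Nespas, in introns of both genes, the CpG at chr2:174288175 repeated the pattern of chr2:174283933, at 98.6% ± 1.38 in MEF-1 against 53.6% ± 10.8 (quasi-binomial adjusted p = 1.78e-06), with the parental lines at 97.9% and 61.4%.

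Next to Nesp and next to exon 1A the reverse was seen, with single CpGs near full methylation in MEF-2 and intermediate in most MEF-1 lines. The next sequences, again of the plus strand, show both stretches with the called CpGs in capitals.
upstream of Nesp (chr2:174283155-174283454): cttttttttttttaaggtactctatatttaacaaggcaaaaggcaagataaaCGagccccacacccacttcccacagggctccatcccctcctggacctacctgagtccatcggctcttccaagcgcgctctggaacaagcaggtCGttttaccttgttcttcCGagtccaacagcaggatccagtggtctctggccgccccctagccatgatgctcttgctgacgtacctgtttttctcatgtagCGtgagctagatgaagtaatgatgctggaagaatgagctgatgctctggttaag
upstream of exon 1A (chr2:174326234-174326533): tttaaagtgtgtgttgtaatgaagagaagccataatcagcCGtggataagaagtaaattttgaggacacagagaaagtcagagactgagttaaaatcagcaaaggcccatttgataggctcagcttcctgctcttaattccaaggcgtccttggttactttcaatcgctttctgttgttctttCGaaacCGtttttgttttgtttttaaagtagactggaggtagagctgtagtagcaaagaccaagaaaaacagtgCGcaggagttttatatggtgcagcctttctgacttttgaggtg
Upstream of Nesp, in an exon of Nespas, the CpG at chr2:174283318 was at 56.9% ± 11.1 in MEF-1 and 98.8% ± 2.07 in MEF-2 (quasi-binomial adjusted p = 1.29e-05), and its neighbour at chr2:174283300 at 61.2% ± 19.6 and 98.0% ± 3.04 (quasi-binomial adjusted p = 0.000483). The first called CpG of the stretch, at chr2:174283207, went the other way, at 56.2% ± 9.68 and 14.8% ± 15.1 (quasi-binomial adjusted p = 0.00530).

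In the intron of Gnas just before the exon 1A window, the CpG at chr2:174326417 was at 40.1% ± 11.2 in MEF-1 and 95.1% ± 4.87 in MEF-2 (quasi-binomial adjusted p = 9.75e-06). The MEF-1 lines ranged from 27.4 to 56.2% and the MEF-2 lines from 89.5 to 100%. At chr2:174326491 the levels were 43.8% ± 14.9 and 97.8% ± 3.22 (quasi-binomial adjusted p = 1.98e-05), and at chr2:174326274 they were 37.8% ± 17.2 and 87.7% ± 11.4 (quasi-binomial adjusted p = 0.00110). Between these, the CpG at chr2:174326379 was at 35.8% ± 12.5 and 32.7% ± 18 (quasi-binomial adjusted p = 0.893). The CpG at chr2:174326423, between the pair near full methylation, was at 35.4% ± 15.9 and 63% ± 15.2 (quasi-binomial adjusted p = 0.0283). Means of MEF-2 thus ranged from 32.7% to 97.8% within 300 bases, while the MEF-1 means of the measured CpGs of this stretch stayed between 35.4% and 43.8%.

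The body of the locus held further large differences in either direction. In introns of Gnas, the CpG at chr2:174307931 was at 92.1% ± 9.02 in MEF-1 and 39.4% ± 23.2 in MEF-2 (quasi-binomial adjusted p = 0.00206), and that at chr2:174335073 at 97.9% ± 2.16 and 49.8% ± 21 (quasi-binomial adjusted p = 0.000256). Their parental lines were at 100% and 66.7%, and at 94.7% and 50%. The MEF-2 lines ranged from 0 to 61.8% at the former and from 30.4 to 93.3% at the latter. Further along, a CpG at chr2:174344147 was at 89.7% ± 8.56 and 46.1% ± 20.3 (quasi-binomial adjusted p = 0.00199), while one at chr2:174320391 was low in MEF-1 and spread widely in MEF-2, at 8.66% ± 10.7 and 63.5% ± 22.4 (quasi-binomial adjusted p = 0.00401). The 33 CpGs after the exon 1 window read 93.8% ± 1.02 in MEF-1 lines and 90.1% ± 1.69 in MEF-2 lines. Between the Nesp and Nespas windows it was 80.6% ± 2.95 and 76.3% ± 6.21.

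The fidelity score, the authors' share of the 14 clonal lines at a faithful level, averaged 0.511 over the 84 CpGs of the 4 windows (0.539 at Nesp, 0.489 at Nespas, 0.491 at Gnasxl and 0.536 at exon 1A), against 0.592 over the other CpGs with intermediate parental levels. It averaged 0.505, 0.544 and 0.679 at the Kcnq1ot1, Peg3 and Airn windows. The study calls a clonal level faithful when it lies at 0 to 10, 40 to 60 or 90 to 100%, the states open to a single diploid cell. At the 84 CpGs of the 4 windows the MEF-1 clonal lines had 48.8, 53.6, 77.4, 50.0, 45.2, 31.0 and 15.5% faithful calls, and the MEF-2 clonal lines 77.4, 60.7, 34.5, 53.6, 50.0, 69.0 and 48.8%. The lowest values belonged to MEF-1 clonal lines 6 and 7 and MEF-2 clonal line 3. At the other CpGs of the series with an intermediate level in the own parental line, the MEF-1 clonal lines averaged 61.1% ± 3.71 and the MEF-2 clonal lines 62.9% ± 3.39 (SD, n = 7 lines).

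The Gnas windows differed from these by -15.2 ± 19.2 points in MEF-1, with 1 line of 7 higher (two-sided exact sign-flip test, p = 0.0938), and differed by -6.65 ± 12.3 points in MEF-2, with 2 of 7 lines higher (exact p = 0.203). The smallest p of this test is 0.0156, and neither difference passed. In the Gnas windows 41.3% (MEF-1) and 54.6% (MEF-2) of CpGs lay at 40 to 60% on average. Only 0.170 to 2.72% lay at 0 to 10% or at 90 to 100%. Of the other CpGs intermediate in both parental lines, 9.84% stayed above 10% and below 90% in all 14 clonal lines. The rest reached 0 to 10 or 90 to 100% in some line, which the study counts as faithful. A mixed parental culture can yield such clones under faithful inheritance. In MEF-1 the difference was -5.22 points with at least 20 reads, -6.40 points with faithful levels widened to 0 to 20, 30 to 70 and 80 to 100%, and -7.14 points after thinning every CpG to 10 reads. In MEF-2 the difference was -4.25 points without clonal line 3 and -1.88 points against comparison CpGs with a parental level of 40 to 60%. A true level of 50% at every CpG would give 70.6% and 71.5% faithful calls on average at this read depth. With the same thinning the MEF-2 difference was -9.50 points (exact p = 0.0156). With at least 20 reads required, which left 30 CpGs, it was 2.64 points (exact p = 0.734).

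**Figure D5:**
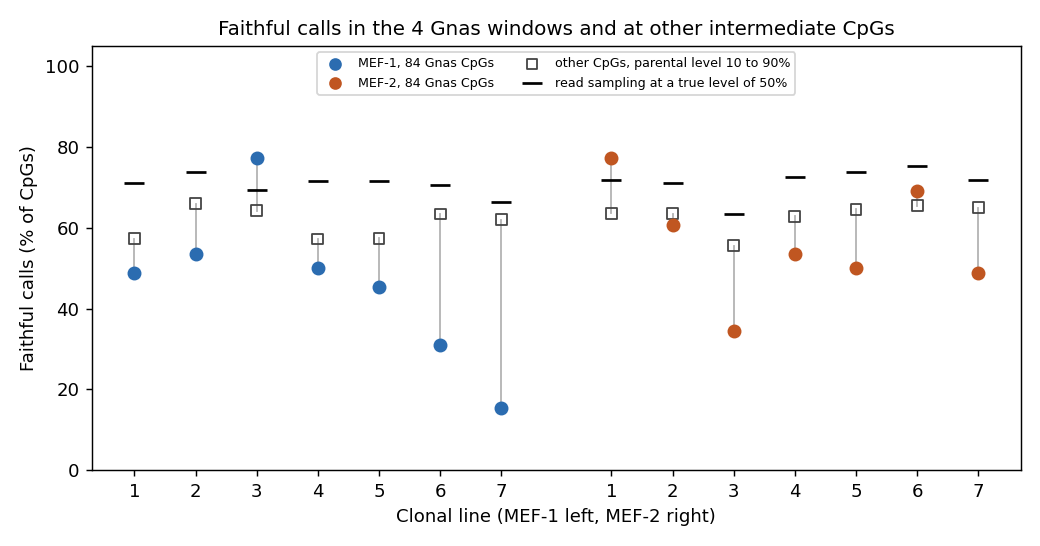
Share of faithful calls (%, vertical axis) in each clonal line (horizontal axis, MEF-1 left and MEF-2 right) at the 84 Gnas CpGs (filled circles) and at other CpGs with a parental level of 10 to 90% (open squares). Short bars give the share that read sampling alone leaves at a true level of 50%. MEF-1 clonal line 7 is lowest at 15.5% and MEF-1 clonal line 3 and MEF-2 clonal line 1 are highest at 77.4%.

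The Nespas window was set beside the starts of 3 other maternally methylated imprinted domains, by the distance of each line from 50%. This distance at Nespas was 12.9 ± 6.33 points for the MEF-1 and 9.32 ± 4.55 points for the MEF-2 lines. The Kcnq1ot1 window on chromosome 7 was 7.21 ± 2.62 and 14.1 ± 6.74 points away, the Peg3 window on the same chromosome 6.07 ± 4.12 and 10.6 ± 4.65 points, and the Airn window on chromosome 17 13.7 ± 14.7 and 7.42 ± 4.05 points. None of the 6 differences passed the two-sided exact sign-flip test (p from 0.0781 to 0.891, n = 7 lines each). The closest, in MEF-1 against Kcnq1ot1, had Nespas farther from 50% by 5.68 ± 7.22 points in 6 of 7 lines. With at least 20 reads required, the MEF-2 difference against Kcnq1ot1 was -20.3 ± 11.3 points (exact p = 0.0156). Relative coverage of chromosome 7 was 0.816 to 0.841 for lines 1, 3 and 7 of MEF-1 and 0.899 for line 6, and that of chromosome 17 was 0.840 in MEF-1 clonal line 1. The part of this coverage in the levels of Kcnq1ot1, Peg3 and Airn was not tested.

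Related G protein alpha subunits, genes of the cyclic AMP pathway in which Gs-alpha acts and the neighbours of the cluster were described by their own promoter windows. Of 17 windows of other G protein alpha subunits, 3 were called higher in MEF-1 and 2 higher in MEF-2. The largest was at Gna15, the alpha subunit of blood cells that couples to phospholipase C, at 70.6% ± 6.25 in MEF-1 and 32.6% ± 6.99 in MEF-2 (quasi-binomial adjusted p = 1.31e-05). This window held 9 CpGs. Another Gna15 window, with 14 CpGs, was not called, at 11.5% ± 1.33 and 11.9% ± 4.55 (quasi-binomial adjusted p = 0.845). Of 23 windows of the cyclic AMP pathway, 11 were called higher in MEF-1 and 1 higher in MEF-2, with a median difference of 5.05 points. Over all 22703 windows 5925 were called higher in MEF-1 and 3597 higher in MEF-2, with a median of 0.459 points. Examples are Adcy4, an adenylyl cyclase (56.6% ± 10.2 and 13.2% ± 7.56, quasi-binomial adjusted p = 3.46e-05), and Prkaca, a catalytic subunit of protein kinase A (96.9% ± 1.61 and 87.3% ± 3.30, quasi-binomial adjusted p = 0.000138). A window of Prkacb, another catalytic subunit, with 6 CpGs, was the one called higher in MEF-2 (72.6% ± 5.48 and 83.2% ± 5.42, quasi-binomial adjusted p = 0.0120). The other Prkacb window, with 49 CpGs, was not called, at 2.24% ± 1.27 and 1.24% ± 0.392 (quasi-binomial adjusted p = 0.0778). Several genes gave more than 1 window.

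Among the neighbours of the cluster on chromosome 2, 7 windows were measured, 2 called higher in MEF-1 and 3 higher in MEF-2, against 41.9% of all windows called in either direction. Ctsz, which encodes a lysosomal protease, was at 11.8% ± 6.21 in MEF-1 and 34.1% ± 8.13 in MEF-2 (quasi-binomial adjusted p = 0.00112), and Edn3, which encodes endothelin 3, at 14.7% ± 4.76 and 25.5% ± 6.24 (quasi-binomial adjusted p = 0.00607). Atp5e, which encodes a subunit of mitochondrial ATP synthase, was at 6.63% ± 0.540 and 2.27% ± 1.03 (quasi-binomial adjusted p = 7.92e-05). Stx16, a syntaxin gene, stayed low at 1.64% ± 0.658 and 1.31% ± 0.508 (quasi-binomial adjusted p = 0.396).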

How the data were processed

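DNA methylation was measured by tcBS-seq in 2 parental and 14 clonal lines (16 libraries), grouped by their labels. Per the labels and the study's methods, the authors trimmed reads with Trim Galore 0.6.0, aligned them to mm10 with Bismark, removed low mapping qualities and merged strands. R 3.6.1 is also named. The deposited values are counts of unmethylated and methylated reads per CpG, not normalised, and 4800 of 4800 member values of the series table equalled those of the library tables. The fidelity and neighbour similarity scores were deposited by the authors and lie between 0 and 1. The series table also held 2 kinds of columns per library, coverage and percentage, that were not used. It kept a CpG only where every library had 10 reads or more.

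The members and lists were chosen with earlier results of these data known. A level was the sum of methylated reads over the sum of reads. Starts 1000 bp or less apart were joined, and windows needed 3 CpGs. Windows and CpGs were tested with a quasi-binomial logistic model (F-test, dispersion not below 1, adjusted p under 0.05 by Benjamini-Hochberg over all windows or CpGs), and values per line with exact sign-flip or permutation tests, in Python 3.11.15 with NumPy 2.4.6 and SciPy 1.17.1. The code was tested on simulated data. Some MEF-1 clonal lines (1, 4 and 5) were closer to each other than the rest, which could make tests over lines too lenient. Named CpGs were, in each window, the best covered CpG, and the 3 called CpGs with the largest difference in each direction. CpGs beside these, that at chr2:174326423, and those at chr2:174283207, chr2:174283300, chr2:174283318, chr2:174288175, chr2:174295900, chr2:174295902, chr2:174320391 and chr2:174344147, were named after their values were seen. The best covered CpGs not shown in the report were chr2:174295821 at Nespas (39.5% ± 5.18 in MEF-1, 49.4% ± 15.8 in MEF-2), chr2:174297521 at Gnasxl (35.5% ± 15.3, 42.1% ± 17.2) and chr2:174328397 at exon 1A (39.9% ± 8.89, 45.8% ± 8.88). Of the marker list, the epithelial genes Epcam and Cdh1 were at 22.6% ± 3.74 and 52.3% ± 7.06 in MEF-1, against 10.3% ± 5.03 and 46.4% ± 3.58 for MEF-2 lines, with Epcam called. The clonal line numbers do not pair lines across families (correlations of deviations from -0.00432 to 0.00353).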

Additional observations from a re-analysis of the deposited data

Results flagged for a closer look

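In 4 of the 20 groups of 7 clonal lines examined, 1 line stood apart from the other 6 by more than Dixon's 95% critical value, where chance gives about 1 in 20. All 4 belong to MEF-2 clonal line 3. The groups share lines and the cluster lies within chromosome 2, so they are not independent. The count of 4 thus cannot be set against the rate of 1 in 20. It was the lowest of its family at the Nesp window (37.3%) and the highest between the exon 1A and exon 1 windows (73.5%). Its relative coverage was the lowest of its family over chromosome 2 (0.784) and over the cluster (0.755). The part of the coverage in the levels was not tested.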

How the results depend on the processing

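Over 320 values under other settings, 290 kept their direction and their side of the threshold or stayed within the spread, 12 moved by more, 2 passed the threshold anew, 5 no longer passed it and 11 changed sign. Except where a value below or in the report shows it, the cause was not tested. The Nesp difference between the families no longer passed at 5.89 points with 250 bp windows, 4.73 points with 1000 bp windows, 9.24 points as a mean of CpG levels, 10.8 points after thinning to 10 reads and 8.38 points without its called CpG. It passed without any single clonal line (10.6 to 14.4 points) and without MEF-1 clonal lines 1, 4 and 5 (14.3 points). Members called numbered 15 of 121 with at least 20 reads, where fewer CpGs were tested and 23.2% of all CpGs were called. Under 5 other settings they numbered 16 to 26 of 300, while 14.1 to 22.3% of all CpGs were called. Of the 16 called without MEF-1 clonal lines 1, 4 and 5, 12 were among the 24 of the report. The Nesp level of MEF-1 ranged from 51.7% (250 bp) to 72.5% (20 reads). Signs turned for the Gnasxl family difference without MEF-1 clonal line 6 and MEF-2 clonal line 3 (2.53 points), and for differences from the parental line at exon 1A in MEF-1 without lines 1, 4 and 5 (-2.36 points) and at Nesp, where leaving out single lines gave -0.711 to 1.77 points for MEF-1 and -2.74 to 0.555 points in MEF-2, and leaving out those 2 lines -0.478 and 0.555 points. The MEF-2 faithful difference turned to 2.64 points with 20 reads and passed at -9.50 points after thinning. Distances from 50% turned for Peg3 in MEF-2 with 1000 bp windows (1.79 points) and for Airn in MEF-1 without lines 1, 4 and 5 (5.76 points), and passed for Kcnq1ot1 in MEF-2 with 20 reads (-20.3 points). With a replicate block by line number the Nesp difference of 12.95 points had a quasi-binomial adjusted p of 0.0173. With the block 21 of 300 members were called, 20 of them also called without it, and 17.3% of all CpGs. The block changed no other call, and 0 of 7 lines correlated best with their own number. With 20 reads no value could be had for the Gnasxl, exon 1A and Airn windows, nor for Gnasxl with 250 bp. Leaving out the 2 lines, reading without a minimum and leaving out called CpGs were chosen after seeing the data. Depth limits the Gnasxl window, with 85 calls in its shallowest library, and the exon 1 window, with 56.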
